A study of Mus musculus with 12 samples.

Results

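H19 and 8 other imprinted genes with roles in growth, Igf2, Dlk1, Meg3, Peg3, Mest, Plagl1, Cdkn1c and Grb10, were followed in dorsal skin of mice with an atopic dermatitis-like disease. H19 was chosen by its level in FPKM (fragments scaled for transcript length and library size), which was below that of control skin in each group exposed to the hapten 1-chloro-2,4-dinitrobenzene (DNCB). The other 8 genes were taken by name, with earlier results of these data known. All 9 are among the 36400 genes of the deposited table and among the 21890 that were tested because they averaged 0.1 FPKM or more. The 12 libraries came from female Balb/c mice that were 6 weeks old at the start, with dorsal hair shaved and skin taken on day 30, 3 libraries per group. Control mice received the vehicle, acetone and olive oil at 3 to 1. DNCB mice were sensitized at 1% DNCB and later challenged at 0.5%. The scMSC and scivMSC mice had the same DNCB exposure and 4 injections of 2000000 human umbilical cord mesenchymal stem cells, either all subcutaneously in 100 µL (scMSC) or split into 50 µL subcutaneously and 50 µL by tail vein (scivMSC). The donor cells were human and the hosts were mice, so only mouse genes are described.

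Genomic imprinting leaves 1 parental copy of a gene active and silences the other, and many imprinted genes set growth before birth. H19 is a maternally expressed long non-coding RNA and Igf2 its paternally expressed neighbour, and both are switched down in most tissues after birth while H19 stays on in skeletal muscle. Meg3, Cdkn1c and Grb10 are likewise expressed mainly from the maternal copy, and Dlk1, Peg3, Mest and Plagl1 mainly from the paternal copy. The table does not separate the parental copies, so each value is the total of both.

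Each library held between 63877153 and 75134001 estimated counts. The 3 libraries of a group are separate samples by their labels, and p-values measure the spread between them. In bulk skin, fewer cells of a type and less RNA per cell cannot be told apart. Keratinocyte markers were present in every library, and no marker of the 12 cell-type lists was at 0 throughout a group. Skeletal muscle markers differed strongly between groups. Their summed level was 21856 to 30791 FPKM in control skin, 5725 to 7878 in DNCB, 5916 to 13065 in scMSC and 6747 to 15973 in scivMSC skin.

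H19 was the most abundant of the 9 genes and, taking each row of the table as deposited, the only 1 below control in every exposed library. The gene (ENSMUSG00000000031) lies on the minus strand at chr7:142575529-142578143, in the GRCm38 coordinates of the table. Control replicates 1 to 3 had 270.0, 262 and 242 FPKM. DNCB libraries had 122, 117 and 109 FPKM. The scMSC libraries had 87.1, 58.9 and 158 FPKM and the scivMSC libraries 98.1, 50.9 and 142 FPKM. All 9 exposed libraries were below all 3 control libraries, and the nearest were scMSC replicate 3 and control replicate 3. The DNCB libraries were close together, while the libraries of each MSC group spread to both sides of them.

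H19 averaged 258 ± 14.6 FPKM in control and 116 ± 6.64 in DNCB skin, then 101 ± 51.0 with scMSC and 96.9 ± 45.4 with scivMSC (SD, n = 3). On the scale of normalized counts, the log2 fold change of H19 from control was -1.35 ± 0.39 (SE) after DNCB alone, -1.52 ± 0.39 with scMSC and -1.57 ± 0.39 with scivMSC. Those values led to the choice of the gene and carry no test. The comparisons that the choice did not use were tested by quasi-likelihood in edgeR, with Benjamini-Hochberg adjustment over all tested genes. Against DNCB, H19 differed by -0.18 ± 0.38 in scMSC (adjusted p = 0.842) and by -0.23 ± 0.38 in scivMSC skin (adjusted p = 0.795). The 2 MSC routes differed by -0.05 ± 0.38 (adjusted p = 1). No difference of H19 among the 3 exposed groups was larger than the spread between libraries, and the direction of each turned on leaving out single MSC libraries.

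The RNA of H19 carries the hairpin of Mir675, shown because a read from the hairpin is also a read from H19. It lies at chr7:142577064-142577147 (GRCm38.p6, minus strand, RefSeq), within exons of 3 of the 7 annotated H19 transcripts. In the hairpin, capitals mark the mature arms, and in the arms they mark the seed, bases 2 to 8.
Mir675 hairpin: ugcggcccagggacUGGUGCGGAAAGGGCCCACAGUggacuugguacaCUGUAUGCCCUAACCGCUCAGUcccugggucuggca
miR-675-5p: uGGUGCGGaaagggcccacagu
miR-675-3p: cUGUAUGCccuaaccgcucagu
The separate Mir675 row held 0.145 to 0.170 FPKM in every library, at 1 or 2 estimated counts, so it gave no usable measure of the mature miRNA. The seeds of the arms differ.

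The control libraries had the most H19, the most skeletal muscle RNA and the most adipocyte RNA. Over the 12 libraries, Pearson's r between log2(FPKM + 0.1) of H19 and the summed muscle markers was 0.87, and after removal of the group means it was 0.86. With 7 markers of muscle progenitors, among them Pax7, Myf5 and Myod1, r was 0.94 and 0.83. These points share the library and its depth. Against control, 10 of the 12 muscle markers were called lower after DNCB alone, 8 with scMSC and 9 with scivMSC, and 6, 3 and 2 of 9 adipocyte markers. Of all tested genes 12.4%, 8.12% and 6.13% were called lower in these comparisons. The adipocyte markers summed to 1505 to 2614 FPKM in control libraries, 479.9 to 756 after DNCB alone, 736 to 1218 with scMSC and 995 to 1071 with scivMSC, and their r with H19 was 0.62, or 0.29 after removal of the group means. The part of muscle or fat in the level of H19 was not tested. Per 1000 FPKM of muscle markers, H19 stood at 8.52 to 11.1 FPKM in control and 13.8 to 21.3 in DNCB skin, against 8.64 to 12.1 with scMSC and 7.54 to 11.3 with scivMSC. On that ratio the DNCB libraries were above all control libraries, while those of both MSC groups overlapped them. The ratio holds for the 12 muscle markers alone. The progenitor markers summed to 42.5 to 58.8 FPKM in control and 12.1 to 15.4 in DNCB skin. They summed to 8.79 to 20.5 with scMSC and 8.57 to 28.1 with scivMSC, and whether the groups stand alike relative to them was not tested.

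**Figure D1:**
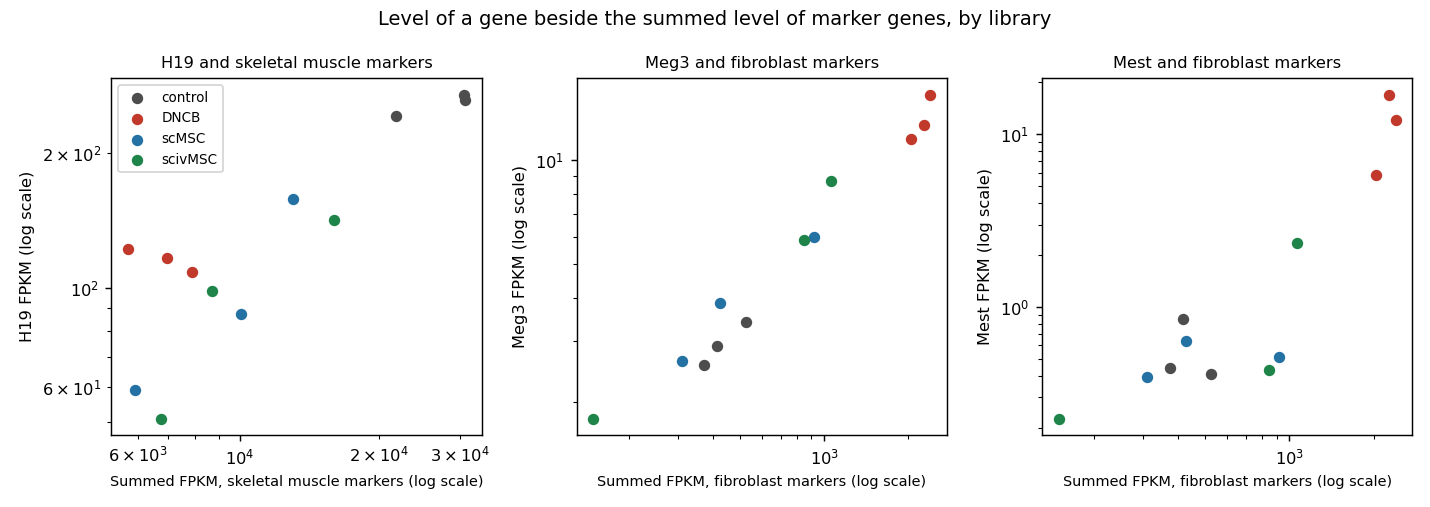
FPKM of H19 against summed FPKM of 12 skeletal muscle markers, and of Meg3 and Mest against that of 8 fibroblast markers, on log axes, with 1 point per library coloured by group. Control libraries have the most muscle RNA and the most H19 (242 to 270.0 FPKM), and the 3 DNCB libraries the most fibroblast RNA, Meg3 and Mest.

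The genes most like H19 were ranked among 14385 genes that averaged 1 FPKM or more. Across all 12 libraries these were Smyd1 (r = 0.968), Akap6 (0.962), 2310015D24Rik (0.960), Gbe1 (0.958) and Synpo2l (0.957). After removal of the group means they were Zc3h8 (0.968), Ldb3 (0.951), Kcnc1 (0.946), Hspb7 (0.940) and Fhl1 (0.938). Taking each row as deposited, none of the other 8 imprinted genes came near these values. Peg3 had the lowest r with H19, at -0.69 over the 12 libraries, and Igf2 the highest, at 0.25. The value for Igf2 depended on control replicate 1, where counts also stood in an overlapping gene model, as described below. Summed with that model, Igf2 had r = 0.84 with H19, or 0.52 after removal of the group means.

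**Figure D2:**
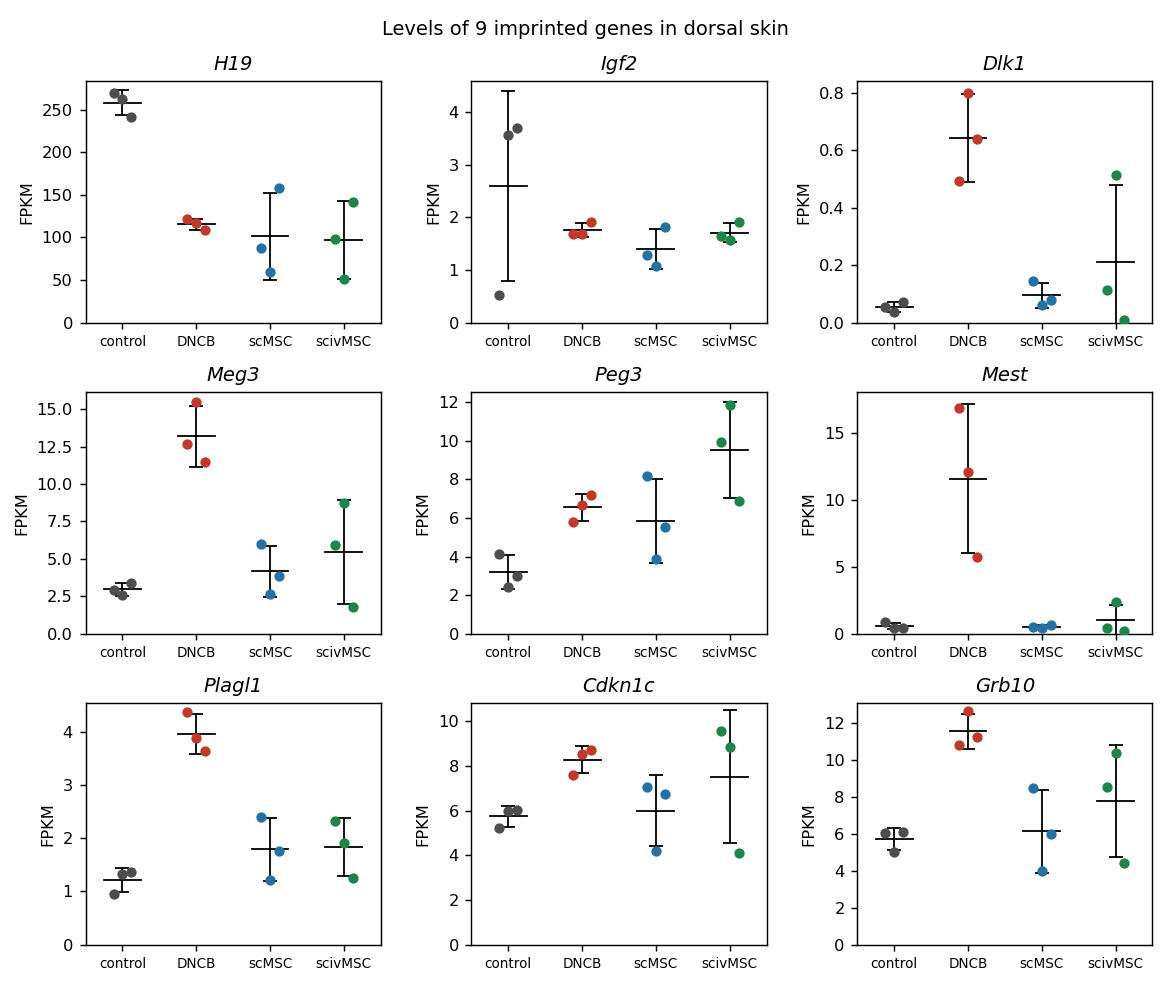
FPKM of the 9 imprinted genes in each library (points), with the group mean (line) and SD (bars, n = 3, some reaching below the axis at 0). H19 is lower in all 9 exposed libraries, whereas Meg3, Mest, Plagl1 and Dlk1 are highest in the DNCB group.

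Igf2, the fetal insulin-like growth factor, lies 72622 bases from H19, at chr7:142650766-142666816 on the minus strand. In 1 control library counts stood both in its row and in that of an overlapping gene model. Control replicates had 0.520, 3.57 and 3.71 FPKM, the DNCB libraries 1.68, 1.69 and 1.91, the scMSC libraries 1.29, 1.08 and 1.83, and the scivMSC libraries 1.65, 1.56 and 1.91. In control replicate 1 Igf2 had 217 estimated counts while the overlapping gene model Gm49394, on the same strand, had 588. Gm49394 had 0 counts in the other 11 libraries. Taken alone, Igf2 passed no test against control, in DNCB (log2 fold change -0.74 ± 0.52, adjusted p = 0.341), scMSC (-1.04 ± 0.52, adjusted p = 0.199) or scivMSC skin (-0.76 ± 0.52, adjusted p = 0.386).

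Summed with Gm49394, a choice made after these values were seen, Igf2 was lower than control in all 3 exposed groups. The sum was 13.7, 25.4 and 24.3 CPM (estimated counts scaled to a common library size) in the control libraries. It was 10.2 to 11.6 in DNCB, 7.09 to 11.1 in scMSC and 9.25 to 12.4 in scivMSC skin, below every control library. The log2 fold changes were -0.98 ± 0.26 (adjusted p = 0.0177) in DNCB, -1.29 ± 0.26 (adjusted p = 0.00715) in scMSC and -1.01 ± 0.26 (adjusted p = 0.0271) in scivMSC skin. Without control replicate 1, Igf2 alone gave -1.25 (adjusted p = 0.00509), -1.58 (adjusted p = 0.0063) and -1.29 (adjusted p = 0.0185). The call on Igf2 therefore rested on how that 1 library was counted. Over the 12 libraries, the sum had r = 0.84 with H19 and 0.80 with the muscle markers, and after removal of the group means 0.52 and 0.44. Against DNCB the sum passed no test (adjusted p = 0.520 for scMSC and 0.972 for scivMSC against DNCB).

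**Figure D3:**
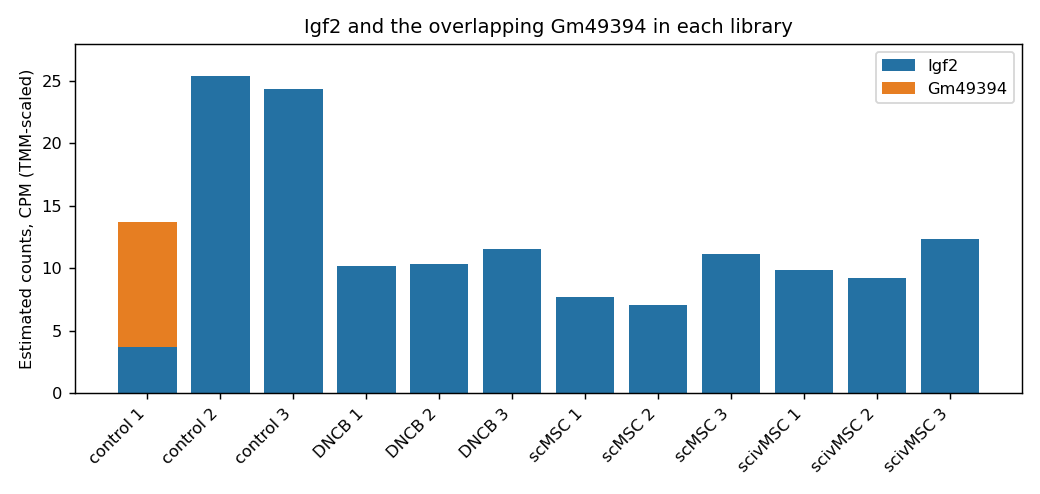
TMM-scaled CPM of estimated counts of Igf2 and of the overlapping Gm49394 in each library, stacked. Gm49394 has counts only in control replicate 1, where the sum is 13.7, and all 9 exposed libraries lie at or below 12.4.

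Nctc1, an RNA gene in the same domain as H19 and Igf2, also fell. It had 15.9 ± 2.81 FPKM in control and 4.92 ± 0.256 in DNCB skin, against 6.97 ± 1.47 with scMSC and 7.86 ± 3.59 with scivMSC (SD, n = 3). The log2 fold changes against control were -1.87 ± 0.31 (adjusted p = 0.00197), -1.35 ± 0.30 (adjusted p = 0.0119) and -1.17 ± 0.30 (adjusted p = 0.0288). Skeletal muscle markers were lower in the same groups, and the part of muscle in the level of Nctc1 was not tested. Cdkn1c lies 791522 bases from Igf2 on the same chromosome, and passed no test against control.

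Most of the other genes had their highest mean in DNCB skin. Of the 8 genes other than H19, 6 were called higher in DNCB than in control skin, Dlk1, Meg3, Peg3, Mest, Plagl1 and Grb10, and none was called lower. In the same comparison 12.9% of all tested genes were called higher and 12.4% lower. The 8 genes were chosen with earlier results of these data known, so setting their count beside these shares is no test. In scMSC against control 0 of 8 were called by edgeR, which called 10.4% of all tested genes higher and 8.12% lower. At an unadjusted p under 0.05 there was 1 of 8, beside 32.3% of all tested genes, and DESeq2 called 0 of 8. In scivMSC against control 1 of 8 was called, Peg3, which was higher, where 7.11% of tested genes were higher and 6.13% lower. Against DNCB, 3 of all 9 were lower in scMSC skin (Meg3, Mest and Plagl1) and 2 of 9 in scivMSC skin (Mest and Plagl1), and none was called higher. Of all tested genes 5.77% were lower and 6.95% higher in scMSC, and 3.6% lower and 4.56% higher in scivMSC skin. These comparisons share their control or DNCB libraries. Between the 2 MSC routes 0 of 9 were called by edgeR or DESeq2, beside 0.00457% of tested genes called by edgeR. At an unadjusted p under 0.05 there was 1 of 9, beside 7.5% of tested genes.

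**Figure D4:**
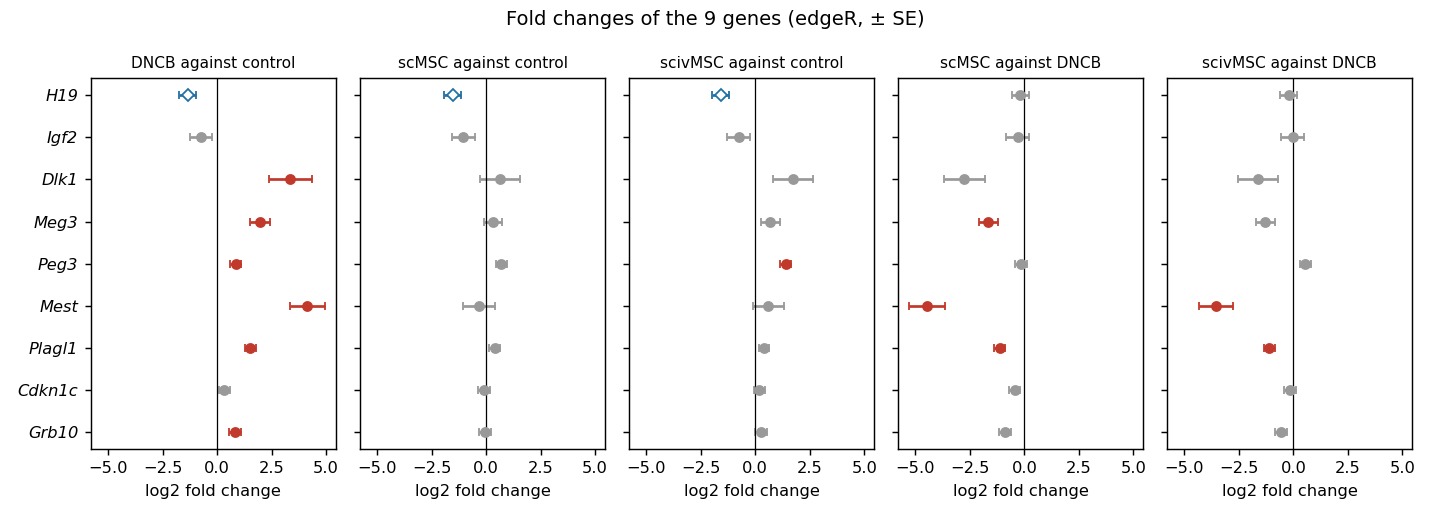
Log2 fold change of each gene in 5 comparisons (edgeR, bars are SE), with red points for an adjusted p under 0.05, grey points above it and open diamonds for the H19 values that were not tested. In DNCB against control 6 genes are higher, and against DNCB only Meg3, Mest and Plagl1 pass the test, all lower.

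Mest changed most. It encodes an alpha/beta-hydrolase fold protein of the endoplasmic reticulum, expressed in the embryonic mesoderm and in expanding fat. It lies at chr6:30723547-30748462 on the plus strand. Control libraries had 0.857, 0.441 and 0.411 FPKM and DNCB libraries 16.9, 12.1 and 5.77 FPKM. The scMSC libraries had 0.512, 0.395 and 0.633 FPKM and the scivMSC libraries 0.432, 2.36 and 0.226 FPKM. Every DNCB library was above every library of the other groups, and the DNCB libraries differed among themselves more than the control or scMSC libraries did. The rise in DNCB was 4.15 ± 0.80 on the log2 scale (adjusted p = 0.00412), or 17.7-fold. Mest was lower than in DNCB skin in both MSC groups, at -4.47 ± 0.81 in scMSC (adjusted p = 0.0059) and -3.55 ± 0.78 in scivMSC skin (adjusted p = 0.0217). The last call was lost, at adjusted p of 0.0511 to 0.0809, without DNCB replicate 1 or 2, without scivMSC replicate 1 or 3, or with only the 6 libraries compared.

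Mest overlaps Copg2 on the opposite strand, and whether counting used strand is not given in the sources used here. Copg2 had 10.7 ± 1.39 FPKM in control and 13.3 ± 1.27 in DNCB skin (SD, n = 3; log2 fold change 0.14 ± 0.12, adjusted p = 0.471). An intron of Mest holds Mir335, at chr6:30741299-30741396 (GRCm38.p6, plus strand), whose mature arms are shown with the seed in capitals because they derive from the most changed gene here.
miR-335-5p: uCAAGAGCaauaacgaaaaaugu
miR-335-3p: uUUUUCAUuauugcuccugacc

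Plagl1, a zinc-finger transcription factor that restrains the cell cycle and acts on other imprinted genes, was also highest in DNCB skin. It lies at chr10:13060504-13130982 on the plus strand. Control libraries had 0.952, 1.33 and 1.37 FPKM and DNCB libraries 4.36, 3.87 and 3.63 FPKM. The scMSC libraries had 2.40, 1.21 and 1.76 FPKM and the scivMSC libraries 2.32, 1.92 and 1.26 FPKM. No DNCB library overlapped another group. The log2 fold change was 1.52 ± 0.25 in DNCB against control (adjusted p = 0.00212), -1.13 ± 0.25 in scMSC against DNCB (adjusted p = 0.0145) and -1.11 ± 0.25 in scivMSC against DNCB (adjusted p = 0.0239). The scMSC call was lost without DNCB replicate 1 (adjusted p = 0.054) or scMSC replicate 2 (adjusted p = 0.0544). The scivMSC call was lost without any 1 DNCB library or scivMSC replicate 3 (adjusted p up to 0.0836).

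Meg3, a maternally expressed long non-coding RNA, and Dlk1, a paternally expressed protein of the Notch ligand family that holds back fat cell formation, lie 77664 bases apart on chromosome 12 (Dlk1 at chr12:109452823-109463336, Meg3 at chr12:109541001-109571721, both on the plus strand). Meg3 had 2.91, 2.55 and 3.42 FPKM in control and 12.7, 15.5 and 11.5 in DNCB skin. It had 6.01, 2.62 and 3.86 FPKM in scMSC and 5.89, 8.70 and 1.79 in scivMSC skin. All DNCB libraries were above all others, and scivMSC replicate 3 was below every control. Meg3 was higher in DNCB by 1.98 ± 0.44 (adjusted p = 0.00847). Against DNCB it was lower in scMSC, at -1.66 ± 0.44 (adjusted p = 0.0316), while scivMSC gave -1.29 ± 0.43 (adjusted p = 0.0984). The scMSC call was lost, at adjusted p of 0.059 to 0.118, without any 1 DNCB library or without scMSC replicate 2 or 3. The scivMSC value passed by DESeq2 (adjusted p = 0.0213) and without scivMSC replicate 2 (adjusted p = 0.0367), and without scivMSC replicate 3 Meg3 was higher in scivMSC than in control skin (1.06, adjusted p = 0.0341).

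Dlk1 was low in control skin, at 0.0556, 0.0359 and 0.0719 FPKM, and had 0.492, 0.799 and 0.640 FPKM in DNCB skin. The scMSC libraries had 0.145, 0.0617 and 0.0779 FPKM, and the scivMSC libraries 0.114, 0.514 and 0.00922 FPKM. These low values rest on few fragments, with 4 estimated counts taken as 1 fragment. Control libraries had 23, 16 and 29 estimated counts, and scivMSC replicate 3 had 4, within a floor of 3 fragments. The DNCB and control libraries did not overlap, but scivMSC replicate 2 reached the level of DNCB skin. The log2 fold change was 3.37 ± 0.97 in DNCB against control (adjusted p = 0.0269). That call was lost without any 1 control library or DNCB replicate 2 or 3 (adjusted p of 0.0564 to 0.0917). Against DNCB the values were -2.75 ± 0.94 in scMSC (adjusted p = 0.0846) and -1.63 ± 0.90 in scivMSC skin (adjusted p = 0.322), and the second was -3.36 without scivMSC replicate 2 (adjusted p = 0.0388). The first passed by DESeq2 (adjusted p = 0.0119) and without scivMSC replicate 2 or 3 (adjusted p = 0.0311 and 0.0117), and without scivMSC replicate 3 Dlk1 was higher in scivMSC than in control skin (2.27, adjusted p = 0.0351). The r of Dlk1 with Meg3 was 0.97 over the 12 libraries and 0.89 after removal of the group means.

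The other genes of this imprinted locus, looked at after the values of Dlk1 and Meg3 were seen, gave 2 patterns. Rian and Mirg, maternally expressed non-coding RNAs downstream of Meg3, and Rtl1, a paternally expressed retrotransposon-derived gene, were highest in DNCB skin. Rian had 0.552 ± 0.0957 FPKM in control and 2.57 ± 0.324 in DNCB skin, against 0.718 ± 0.241 with scMSC and 0.859 ± 0.389 with scivMSC (SD, n = 3). Its log2 fold changes were 2.03 ± 0.31 in DNCB against control (adjusted p = 0.00151), -1.82 ± 0.31 in scMSC against DNCB (adjusted p = 0.00458) and -1.58 ± 0.31 in scivMSC against DNCB (adjusted p = 0.0139). Mirg passed the same 3 tests, at 1.46 ± 0.43 (adjusted p = 0.0295), -1.73 ± 0.43 (adjusted p = 0.025) and -1.90 ± 0.43 (adjusted p = 0.0251). Rtl1 passed none, at 3.12 ± 1.14 in DNCB against control (adjusted p = 0.0683).

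Dio3, which encodes the deiodinase that inactivates thyroid hormone and lies 815731 bases from Dlk1, did not follow. Its control libraries were at 0, 0.044 and 0.043 FPKM, within a floor of 3 fragments per library. The DNCB libraries had 0.313, 0.364 and 0.925 FPKM, the scMSC libraries 2.07, 4.60 and 0.733, and the scivMSC libraries 1.84, 0.423 and 0.441. Each exposed group was above all control libraries. The group mean was 5.80-fold the control floor in DNCB, 27.7-fold in scMSC and 9.73-fold in scivMSC skin. The edgeR test of each group against control, which did not use the floor, gave adjusted p = 0.0218, 0.00507 and 0.0196. The scMSC and DNCB libraries overlapped (log2 fold change 2.25 ± 0.91, adjusted p = 0.145).

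**Figure D5:**
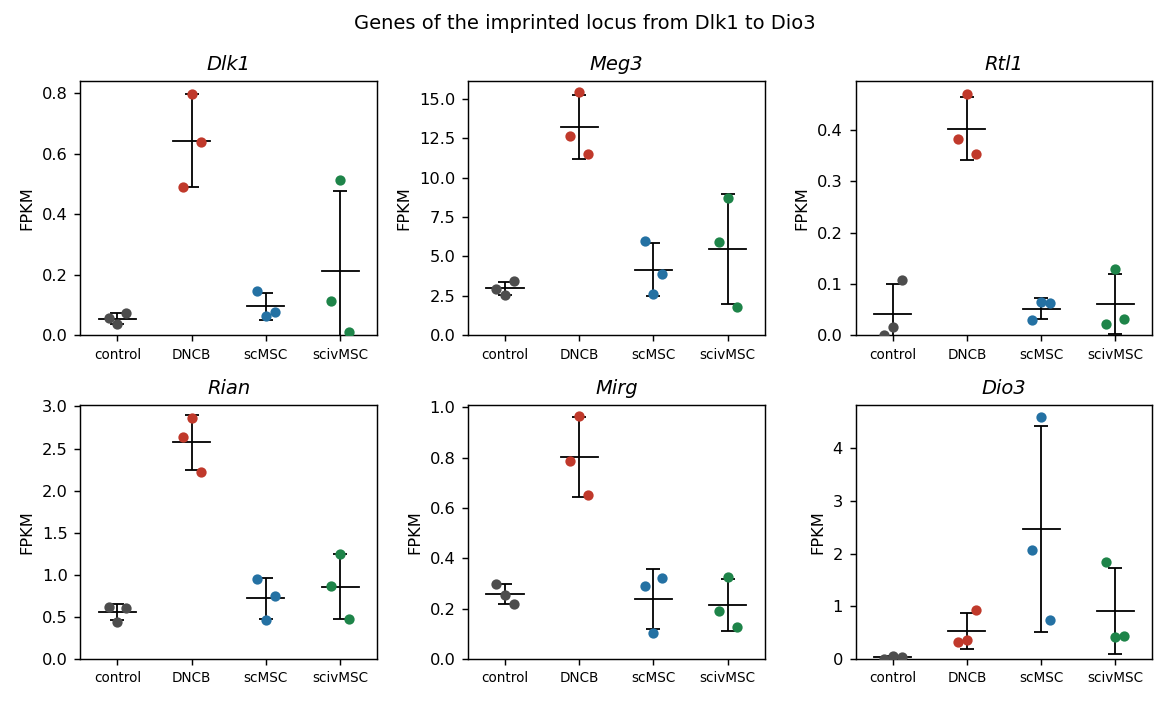
FPKM of 6 genes of the imprinted locus from Dlk1 to Dio3 in each library (points), with the group mean (line) and SD (bars, n = 3, some reaching below the axis at 0). The first 5 genes have their highest mean in DNCB skin, and Dio3 is highest in an scMSC library, at 4.60 FPKM.

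Peg3, a paternally expressed zinc-finger gene linked to growth and stem cells, stayed high in the scivMSC group. It lies at chr7:6703892-6730421 on the minus strand. Control libraries had 4.13, 2.44 and 3.01 FPKM, DNCB libraries 5.80, 6.66 and 7.16, scMSC libraries 8.15, 3.86 and 5.52, and scivMSC libraries 9.91, 11.8 and 6.89 FPKM. All DNCB and scivMSC libraries were above the control libraries, and scMSC replicate 2 was within them. The log2 fold change against control was 1.39 ± 0.27 in scivMSC skin (adjusted p = 0.00923), 0.85 ± 0.26 in DNCB (adjusted p = 0.037) and 0.70 ± 0.26 in scMSC skin (adjusted p = 0.0924). The DNCB call was lost, at adjusted p up to 0.151, without control replicate 2 or 3, any 1 DNCB library or scivMSC replicate 1, or without a filter on low values. The 2 MSC routes differed by 0.70 ± 0.26, and this difference did not pass the test (adjusted p = 0.617). Zim1, an imprinted zinc-finger gene beside Peg3, was higher than control in DNCB (1.60 ± 0.48, adjusted p = 0.0314) and in scivMSC skin (2.14 ± 0.49, adjusted p = 0.0177).

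Grb10 and Cdkn1c, both growth restrainers expressed from the maternal copy in most tissues, had small fold changes. Grb10, an adaptor that dampens insulin and IGF receptor signalling, lies at chr11:11930508-12037401 on the minus strand. It had 6.05, 5.03 and 6.07 FPKM in control and 10.8, 12.6 and 11.2 in DNCB skin, against 8.46, 3.97 and 5.98 with scMSC and 8.51, 10.4 and 4.42 with scivMSC. The DNCB libraries were above all others. Its log2 fold change of 0.83 ± 0.28 in DNCB against control was near the threshold (adjusted p = 0.0494) and was lost without any 1 control or DNCB library, scMSC replicate 3 or scivMSC replicate 1, without a filter on low values or with DESeq2 size factors (adjusted p up to 0.162). In scMSC against DNCB it was -0.90 ± 0.28 (adjusted p = 0.0577), which passed by DESeq2 (adjusted p = 0.0163) and without scMSC replicate 1 or scivMSC replicate 2 or 3 (adjusted p of 0.0179 to 0.048).

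Cdkn1c, the CDK inhibitor p57, lies at chr7:143458339-143461050 on the minus strand. It had 5.22, 5.99 and 6.03 FPKM in control and 7.59, 8.55 and 8.71 in DNCB skin, against 7.08, 4.19 and 6.75 with scMSC and 9.58, 8.86 and 4.11 with scivMSC. The DNCB libraries were above the control libraries by a margin that did not pass the test (log2 fold change 0.34 ± 0.27, adjusted p = 0.389), and both MSC groups straddled the control level.

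Fibroblast markers had their highest summed level in the DNCB libraries, as had Meg3, Mest, Plagl1 and Grb10. The 8 markers summed to 373 to 524 FPKM in control and 2043 to 2397 in DNCB skin, against 309 to 918 with scMSC and 150 to 1062 with scivMSC. In DNCB against control 4 of the 8 were called higher, and in scMSC against DNCB 3 were called lower. In scivMSC against DNCB none of the 8 was called, at a median log2 fold change of -1.50. Other markers were higher in DNCB than in control skin as well, with 6 of 6 called for neutrophils (2494 to 3441 against 121 to 208 FPKM), 7 of 7 for mitosis (67.5 to 90.1 against 10.2 to 22.6), 4 of 6 for interfollicular keratinocytes and 3 of 6 for endothelium. Of 6 pericyte and smooth muscle markers 1 was called higher and 2 lower. The r with the fibroblast sum over the 12 libraries was 0.98 for Meg3, 0.95 for Grb10, 0.93 for Dlk1, 0.91 for Plagl1, 0.87 for Mest and 0.84 for Cdkn1c. After removal of the group means it was 0.98, 0.95, 0.83, 0.80, 0.60 and 0.90. High values were not particular to fibroblasts. Mest had r = 0.92 with the pericyte and smooth muscle sum and 0.89 with the neutrophil sum, or 0.62 and 0.35 after removal of the group means. With the endothelium sum r was 0.92 for Meg3, 0.92 for Grb10 and 0.84 for Mest, or 0.87, 0.87 and 0.56 after that removal. These points share libraries, and the part of fibroblasts or of the other cells in these results was not tested.

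Relative to the fibroblast markers the genes came apart. Per 1000 FPKM of the markers, Meg3 was at 6.52 to 7.02 FPKM in control and 5.58 to 6.45 in DNCB skin, against 6.54 to 9.08 with scMSC and 6.96 to 12.0 with scivMSC. Plagl1 was at 2.30 to 3.57 FPKM in control and 1.62 to 1.92 in DNCB skin, against 2.61 to 4.15 with scMSC and 1.81 to 8.41 with scivMSC. Mest was at 0.784 to 2.07 FPKM in control and 2.83 to 7.47 in DNCB skin, and at 0.558 to 1.49 in scMSC and 0.509 to 2.22 in scivMSC skin. On this ratio Mest alone of the 3 had every DNCB library above every control library, and the DNCB libraries of Meg3 and Plagl1 lay below the control libraries. The ratio holds for the fibroblast list alone. The pericyte and smooth muscle sum and the neutrophil sum were higher in DNCB than in control skin too. Whether Mest was higher relative to those lists was not tested.

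The promoters of Mest, Plagl1 and Meg3 are shown, since these genes were higher in DNCB than in control and lower in scMSC than in DNCB skin. Each spans 250 bases before to 50 after a RefSeq start of GRCm38.p6, the start with most CpG where a gene has several. A table entry was found for 7 of the 9 genes, H19 and Cdkn1c being the others. Capitals mark matches, on either strand, to GGGGCCCC (a PLAGL1 motif), GGGCGG (the GC box) or TATAAA.
Mest, chr6:30737800-30738099, plus strand: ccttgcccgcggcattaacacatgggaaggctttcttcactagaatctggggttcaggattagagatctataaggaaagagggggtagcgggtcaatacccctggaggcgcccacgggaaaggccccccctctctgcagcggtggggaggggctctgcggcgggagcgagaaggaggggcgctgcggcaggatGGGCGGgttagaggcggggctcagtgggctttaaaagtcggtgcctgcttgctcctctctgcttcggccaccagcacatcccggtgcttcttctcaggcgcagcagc
Plagl1, chr10:13090582-13090881, plus strand: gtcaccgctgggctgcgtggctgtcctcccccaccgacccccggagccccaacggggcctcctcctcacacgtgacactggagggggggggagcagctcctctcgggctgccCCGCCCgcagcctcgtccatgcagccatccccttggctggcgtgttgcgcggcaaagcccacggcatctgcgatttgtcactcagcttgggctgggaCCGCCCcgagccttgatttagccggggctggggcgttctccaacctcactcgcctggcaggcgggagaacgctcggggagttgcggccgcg
Meg3, chr12:109540746-109541045, plus strand: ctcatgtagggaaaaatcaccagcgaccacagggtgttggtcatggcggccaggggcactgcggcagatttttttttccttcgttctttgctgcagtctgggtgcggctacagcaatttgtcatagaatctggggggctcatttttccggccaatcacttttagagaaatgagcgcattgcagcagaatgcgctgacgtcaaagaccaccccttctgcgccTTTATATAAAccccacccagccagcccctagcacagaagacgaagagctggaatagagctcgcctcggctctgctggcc
Mest held 17 CpG and 1 GC box, and Plagl1 held 26 CpG and 2 GC boxes, against a median of 7 CpG over all 32817 promoters of that length. Meg3 held 2 overlapping TATAAA matches, 1 on each strand. Of the other 3 genes called higher in DNCB skin, Grb10 held 45 CpG and 5 GC boxes, Peg3 held 13 CpG and the GGGGCCCC palindrome, and Dlk1 held 9 CpG and none of these motifs. Over all promoters, 35.6% held GGGCGG, 13.6% TATAAA and 1.07% GGGGCCCC. Matches describe these letters and show no binding.

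Other imprinted genes did not move as a block. Of 46 listed in addition to the 9, 37 were tested. In DNCB against control 7 were called higher and 7 lower, beside 12.9% and 12.4% of all tested genes. The median log2 fold change was 0.04, beside 0.02 for all tested genes. In scMSC against control 2 were higher and 7 lower, beside 10.4% and 8.12%. In scivMSC against control 2 were higher and 5 lower, beside 7.11% and 6.13%. Against DNCB, 1 was higher and 3 lower in each MSC group. Of all tested genes 6.95% were higher and 5.77% lower in scMSC, and 4.56% and 3.6% in scivMSC skin. Among the genes lower than control in all 3 exposed groups were Snrpn, a splicing protein gene (-1.27 ± 0.23 in DNCB, adjusted p = 0.00326), Gnas, the stimulatory G protein (-0.65 ± 0.21, adjusted p = 0.0429), and the amino acid transporter Slc38a4 (-0.58 ± 0.15, adjusted p = 0.0182).

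The IGF axis, through which Igf2, Grb10 and H19 are tied to growth, had calls in both directions, except in scivMSC against control. Of its 21 listed genes, 7 were higher and 1 lower in DNCB against control, 4 and 3 in scMSC, and 2 and 0 in scivMSC against control. Against DNCB, 2 were higher and 3 lower in scMSC, and 2 higher and 1 lower in scivMSC skin. Of all tested genes 12.9% were higher and 12.4% lower in DNCB, 10.4% and 8.12% in scMSC, and 7.11% and 6.13% in scivMSC against control. Against DNCB the shares were 6.95% higher and 5.77% lower in scMSC, and 4.56% and 3.6% in scivMSC skin. Stc1, an inhibitor of the IGF-releasing protease Pappa, was higher than control in DNCB (1.45 ± 0.42, adjusted p = 0.0264) and scMSC skin (1.56 ± 0.42, adjusted p = 0.0254). Igf2r, the receptor that clears Igf2, was higher in DNCB than in control (0.67 ± 0.15, adjusted p = 0.00787), as were the binding protein genes Igfbp2 (1.32 ± 0.39, adjusted p = 0.031) and Igfbp7 (1.05 ± 0.27, adjusted p = 0.015). Igf1 had 3.50 ± 0.397 FPKM in control and 6.61 ± 1.20 in DNCB skin, against 1.97 ± 0.832 with scMSC and 2.60 ± 0.993 with scivMSC (SD, n = 3), and was lower than in DNCB at -1.74 ± 0.31 in scMSC (adjusted p = 0.0053) and -1.36 ± 0.30 in scivMSC skin (adjusted p = 0.0238). The insulin receptor substrates Irs1 and Irs2 were both higher in the MSC groups than in DNCB skin. Irs1 fell in DNCB against control (-1.16 ± 0.19, adjusted p = 0.00203). Against DNCB it rose in scMSC (0.68 ± 0.19, adjusted p = 0.0401) and scivMSC skin (0.77 ± 0.19, adjusted p = 0.0325). Irs2 rose against DNCB in scMSC (1.16 ± 0.18, adjusted p = 0.00327) and scivMSC skin (0.93 ± 0.18, adjusted p = 0.014).

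A list of genes that write, keep or remove DNA methylation or act at imprinted regions, Tet1, Tet2 and Tet3 included, was called higher or not at all. Of 12 tested, 7 were higher in DNCB, 6 in scMSC and 5 in scivMSC skin than in control, beside 12.9%, 10.4% and 7.11% of all tested genes, and none was lower. Against DNCB none was called in either MSC group. The shares of all tested genes there were 6.95% higher and 5.77% lower in scMSC, and 4.56% and 3.6% in scivMSC skin. Of 7 mitosis markers, 7, 6 and 7 were called higher in the same 3 comparisons with control, and their part in these counts was not tested. Dnmt1, the maintenance DNA methyltransferase, rose by 0.78 ± 0.10 (adjusted p = 0.000823) in DNCB, 0.57 ± 0.10 (adjusted p = 0.00399) in scMSC and 0.59 ± 0.10 (adjusted p = 0.00642) in scivMSC skin. Tet2, which oxidizes methylated DNA, was called higher in scMSC skin (0.65 ± 0.19, adjusted p = 0.0383), while Tet1 and Tet3 passed no test. Trim28, the corepressor recruited to imprinted regions, rose by 0.69 ± 0.15 (adjusted p = 0.0081), 0.79 ± 0.15 (adjusted p = 0.00627) and 0.69 ± 0.15 (adjusted p = 0.0166). Ctcf, the insulator protein that binds between Igf2 and H19, rose by 0.42 ± 0.10 (adjusted p = 0.014), 0.42 ± 0.10 (adjusted p = 0.0197) and 0.53 ± 0.10 (adjusted p = 0.00997).

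Relatives of the remaining genes were read in 3 short lists. For all 3, the shares of all tested genes called higher than control were 12.9% in DNCB, 10.4% in scMSC and 7.11% in scivMSC skin. The shares called lower were 12.4%, 8.12% and 6.13%. Among 13 tested genes of the Notch pathway, 3 were higher in DNCB, 5 in scMSC and 4 in scivMSC skin than in control, and none lower. Against DNCB, 2 were higher and 1 lower in scMSC and 1 was higher in scivMSC skin, beside 6.95%, 5.77% and 4.56% of all tested genes. Heyl, a Notch target, was higher than control in scMSC (2.59 ± 0.45, adjusted p = 0.0038) and scivMSC skin (1.76 ± 0.44, adjusted p = 0.0245) and higher than DNCB in scMSC skin (1.83 ± 0.44, adjusted p = 0.0205). Notch4, the endothelial receptor, was lower than DNCB in scMSC skin (-1.04 ± 0.30, adjusted p = 0.0467). Of 10 markers of the anagen hair follicle, 9 were called higher in scMSC and 5 in scivMSC than in control skin, and 6 and 5 higher than in DNCB skin, and their part in the Notch values was not tested. Notch1 rose against DNCB in scMSC (0.91 ± 0.13, adjusted p = 0.00239) and scivMSC skin (0.48 ± 0.13, adjusted p = 0.0417). Of 6 other CDK inhibitor genes, Cdkn2a was higher in DNCB than in control (2.31 ± 0.68, adjusted p = 0.0287). Its control replicate 1 had 12 estimated counts, at the floor of 3 fragments. Cdkn1a and Cdkn2b were called higher in scMSC than in control skin, and none of the 6 was called in scivMSC against control. Cdkn1b was higher than DNCB in scMSC (0.57 ± 0.16, adjusted p = 0.0376) and scivMSC skin (0.67 ± 0.16, adjusted p = 0.0273). Of 4 tested genes of the PLAG family and the LIN28 axis, Hmga1, Plag1 and Hmga2 were higher in DNCB than in control, and Plagl2 was higher than DNCB in scMSC (1.13 ± 0.15, adjusted p = 0.00199) and scivMSC skin (0.74 ± 0.14, adjusted p = 0.0139), where Plagl1 was lower.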

How the data were processed

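Bulk RNA sequencing of dorsal skin gave 12 libraries, 3 per group by their labels. The deposited table holds FPKM, in which the authors accounted for gene length and depth, and estimated counts that are whole numbers, not normalized between libraries. The submitters' processing notes name Bowtie 0.12.2, HISAT2 2.0, StringTie 1.3.0 and the build mm8, whereas the coordinates in the table are those of GRCm38 (32007 of 36400 genes had the same coordinates in GENCODE M21). Use of strand in counting is not given in the sources used here. In each library 38.9% to 41.2% of the values between 1 and 18 were divisible by 4, and 4 estimated counts were taken as 1 fragment, so the floor was 3 fragments. Floors cover counting error only.

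Genes averaging 0.1 FPKM or more were fitted in edgeR 4.0.16 in R 4.3.3 (quasi-likelihood F-test, TMM normalization, 1 model of 4 groups, common biological coefficient of variation 0.420), and a call needed an adjusted p (Benjamini-Hochberg) under 0.05. The test was tried on simulated data. CPM were scaled by TMM. Levels between genes were compared in FPKM alone. Alternatives were DESeq2 1.42.0, limma 3.58.1 on log2(FPKM + 0.1) and on log2(FPKM + 1), other normalizations and filters, counts divided by 4, and leaving out each library.

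The 9 genes and all lists were chosen with earlier results of these data known. From each list, genes were named from those of largest fold change among called genes with at least 1 FPKM, up to 3 per direction and comparison. Rtl1, Rian, Mirg and Dio3 as a locus, Plag1, Hmga2, Dnmt1, Ctcf and the sum of Igf2 and Gm49394 were picked after their values were seen.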

Additional observations from a re-analysis of the deposited data

How the results depend on the processing

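Alternatives moved counts of called genes more than directions. In scMSC against DNCB, 5 genes were called by DESeq2 and 5 with counts divided by 4, beside 3, the added genes being Dlk1 and Grb10. In scivMSC against DNCB, 1 was called with only the 6 libraries compared, beside 2. Leaving out 1 library at a time gave 3 to 6 calls in DNCB against control, 0 to 1 in scMSC against control, 1 to 3 in scivMSC against control, 1 to 5 in scMSC against DNCB and 0 to 4 in scivMSC against DNCB. The cause was not tested. Scaling by library size alone moved the median of all tested genes in DNCB against control from 0.02 to 0.20 on the log2 scale.

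Small differences turned. In scMSC against control, Cdkn1c was at 0.063 by library size alone and 0.030 by limma with either pseudocount, and Grb10 at 0.10, 0.039 and 0.041. Without 1 library, scMSC against DNCB ranged from -0.64 to 0.047 for H19 and -0.43 to 0.025 for Peg3. The range of scivMSC against DNCB was -0.65 to 0.094 for H19, -0.15 to 0.053 for Igf2 and -0.35 to 0.14 for Cdkn1c. That of scivMSC against scMSC was -0.45 to 0.41 for H19, -0.61 to 1.71 for Dlk1, -0.12 to 0.80 for Meg3, -0.65 to 1.41 for Mest and -0.17 to 0.25 for Plagl1. That of scMSC against control was -0.0039 to 0.48 for Meg3, -0.59 to 0.061 for Mest, -0.21 to 0.0044 for Cdkn1c and -0.34 to 0.075 for Grb10, and that of scivMSC against control -0.97 to 1.04 for Mest and -0.0072 to 0.44 for Cdkn1c.

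Same-numbered libraries were not paired. Of 18 same-number pairs 4 had a correlation of deviations over 0.1 (range -0.35 to 0.25), and 2 of 12 libraries correlated best with their own number. With a replicate block, 4 of 8 genes were called in DNCB against control and 2 of 9 in scMSC against DNCB, where Dlk1 (adjusted p = 0.0504) and Grb10 (adjusted p = 0.0655) in the first and Meg3 (adjusted p = 0.0518) in the second were above the threshold of 0.05. In DNCB against control, Mest, Plagl1 and Meg3 kept their call in every alternative run, as did Mest in scMSC against DNCB and Peg3 in scivMSC against control.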
